A study of Homo sapiens with 18 samples.

Results

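The E2F family was followed through the transcriptomes of 2 oestrogen receptor-positive breast cancer lines that had been given a CDK4/6 inhibitor. Its members were taken by gene name from the deposited table of read counts: the 8 E2F genes (E2F1 to E2F8) and the genes of both DP partners (TFDP1 and TFDP2), 10 of 60656 gene rows, of which 25113 had at least 1 count. All 10 had counts. E2F proteins bind the promoters of genes needed for DNA replication and mitosis, and E2F1 to E2F6 do so as pairs with a DP protein. While the retinoblastoma protein (Rb) lacks phosphate it holds the activator E2Fs silent, and phosphorylation by CDK4 and CDK6 with D-type cyclins releases them. E2F1, E2F2 and E2F3 are the activators, E2F4 and E2F5 mainly repress together with p107 and p130, the relatives of Rb, E2F6 represses without any pocket protein, and E2F7 and E2F8 are atypical repressors that bind DNA without DP.

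CAMA-1 and ZR-75-1, both wild-type established cell lines, were kept for 5 days in DMSO, in abemaciclib at 500 nM or in palbociclib at 500 nM. Both agents inhibit CDK4 and CDK6, and DMSO is the solvent. Each of the 6 groups had 3 libraries of 3′-end messenger RNA sequencing, which the study describes as separate cultures, 18 in all. A cell line in culture holds neither stroma nor immune cells, and each line stands for 1 tumour. Totals ran from 2308442 to 4146549 counts, so that 1 count stood for 0.241 to 0.433 CPM (counts relative to the library total) before scaling. The luminal epithelial markers ESR1, GATA3, FOXA1, EPCAM, KRT8, KRT18 and KRT19 were detected in all 18 libraries, whereas PTPRC (leukocytes), PECAM1 (endothelium), KRT5 and KRT14 (basal epithelium) stayed at or under 3 counts in each. The fibroblast collagen COL1A1 was read at 10.3 to 24.6 CPM in CAMA-1 and 19.2 to 32.7 CPM in ZR-75-1, and COL3A1 reached 8.66 CPM in CAMA-1. In CAMA-1, COL3A1 was higher with abemaciclib (log2 2.24) and palbociclib (log2 2.12) and COL1A1 lower with abemaciclib (log2 -0.58), and their part in the results below was not tested. The mitochondrial share of counts moved with treatment in CAMA-1, from 14.8 to 16.6% in DMSO to 23.4 to 26.1% in abemaciclib and 22.9 to 24.9% in palbociclib, and was 17.3 to 22.6% over the DMSO and drug groups of ZR-75-1. Without the mitochondrial genes, the tested drug responses of the members in CAMA-1 kept their direction and their side of the threshold. The other genes named and the bounds of E2F7 were not recomputed that way. Because these are bulk libraries, fewer cells that make a transcript and less of it in each cell cannot be told apart.

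On GRCh38 (GENCODE release 44) the activator genes lie at chr20:33675477-33686385 (E2F1, minus strand), chr1:23506438-23531233 (E2F2, minus) and chr6:20401879-20493714 (E2F3, plus). E2F4 lies at chr16:67192155-67198918 (plus), E2F6 at chr2:11444375-11466177 (minus), E2F7 at chr12:77021248-77065569 (minus) and E2F8 at chr11:19224063-19241620 (minus). TFDP1 lies at chr13:113584721-113641473 (plus) and TFDP2 at chr3:141944428-142149544 (minus). Each count covers the exons of the whole gene, so that E2F3a and E2F3b, transcripts with separate starts, were not told apart. Pseudogenes and other named relatives of the members held 0 to 14 counts each over all 18 libraries. E2F5 is less certain than the rest: the coding gene RBIS, with 4073 counts in all, overlaps it on the opposite strand, and whether the counting used strand is not given in the sources used here.

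Several E2F genes are known to carry E2F sites of their own at the promoter, so the start regions were read for them. RefSeq windows (GRCh38.p14, 250 bases before to 50 bases after a start) were given for 8 of the 10 members, in 11 windows. E2F5 and E2F8 were not read here. The E2F core strings TTTGGCGC, TTTCGCGC and GGCGGGAA were searched on both strands, together with TTTGAA, a short string of the CHR element through which MuvB complexes bind. Over 35116 windows of all genes, TTTGGCGC was in 0.652%, TTTCGCGC in 0.515%, GGCGGGAA in 3.16%, any of these 3 in 4.24%, and TTTGAA in 15.2%. The windows of E2F1, E2F2, TFDP1 and E2F3 each held 1 of the E2F strings, and they are shown because those genes lead the results, with the string in capitals. E2F7 is shown beside them as a gene that fell and whose window held none.
E2F1 (chr20:33686336-33686635, minus strand): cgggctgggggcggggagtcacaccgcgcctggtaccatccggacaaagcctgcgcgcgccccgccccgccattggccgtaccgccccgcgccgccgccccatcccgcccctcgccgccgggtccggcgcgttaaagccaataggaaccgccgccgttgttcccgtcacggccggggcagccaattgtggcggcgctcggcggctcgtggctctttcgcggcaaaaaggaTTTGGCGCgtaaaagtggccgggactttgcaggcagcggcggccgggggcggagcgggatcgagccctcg
E2F2 (chr1:23531184-23531483, minus strand): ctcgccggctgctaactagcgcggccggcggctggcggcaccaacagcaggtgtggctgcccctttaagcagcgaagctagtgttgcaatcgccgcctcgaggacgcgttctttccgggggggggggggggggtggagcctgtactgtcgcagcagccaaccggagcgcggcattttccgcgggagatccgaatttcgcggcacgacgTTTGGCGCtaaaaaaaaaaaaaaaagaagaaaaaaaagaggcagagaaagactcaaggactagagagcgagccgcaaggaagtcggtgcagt
TFDP1 (chr13:113584503-113584802, plus strand): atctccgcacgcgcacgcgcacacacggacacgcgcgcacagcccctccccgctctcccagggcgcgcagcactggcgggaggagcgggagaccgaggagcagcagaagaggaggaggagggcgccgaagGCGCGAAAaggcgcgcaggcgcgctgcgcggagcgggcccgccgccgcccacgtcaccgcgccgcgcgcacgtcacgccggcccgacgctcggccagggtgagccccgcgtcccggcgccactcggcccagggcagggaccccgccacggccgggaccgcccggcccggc
E2F3 (chr6:20401629-20401928, plus strand): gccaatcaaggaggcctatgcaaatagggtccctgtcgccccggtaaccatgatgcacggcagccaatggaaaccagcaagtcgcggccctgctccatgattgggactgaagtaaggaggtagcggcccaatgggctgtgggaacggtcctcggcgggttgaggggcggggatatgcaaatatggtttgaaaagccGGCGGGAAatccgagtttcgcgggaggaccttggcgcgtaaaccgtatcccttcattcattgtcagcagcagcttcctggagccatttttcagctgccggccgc
E2F7 (chr12:77065520-77065819, minus strand): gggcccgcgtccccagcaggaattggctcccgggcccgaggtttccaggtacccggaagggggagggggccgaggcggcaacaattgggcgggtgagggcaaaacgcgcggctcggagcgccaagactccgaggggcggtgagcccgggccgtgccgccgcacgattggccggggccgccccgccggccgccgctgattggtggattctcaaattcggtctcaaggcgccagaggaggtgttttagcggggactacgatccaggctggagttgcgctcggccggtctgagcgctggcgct
Counted from the start site, TTTGGCGC lay at -20 to -13 in E2F1 and at -42 to -35 in E2F2, TTTCGCGC lay in reverse complement at -120 to -113 in TFDP1, and GGCGGGAA lay at -54 to -47 in E2F3, whose window also held TTTGAA at -65 to -60. No match overlapped another. The windows of E2F4, E2F6 and E2F7 and a second window of E2F3 held none of the 4 strings, and TTTGAA was in 2 of the 3 windows of TFDP2. Such a match is a run of letters and not a measured binding site.

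The first question was how the members responded to each drug within a line, against DMSO. Counts were tested with edgeR's quasi-likelihood test over the 9 libraries of a line, p-values were adjusted by Benjamini-Hochberg over all genes tested, and a gene was called at an adjusted p under 0.05. Levels are CPM on 1 TMM scaling of all 18 libraries, and fold changes are log2 values. Their SE was derived from the test, as the absolute log2 value over the square root of its F statistic. Intervals are 95% intervals, 1.96 of that SE to each side, and are approximate. In CAMA-1, abemaciclib lowered E2F1, E2F2, E2F6, E2F8 and TFDP1 and raised E2F3, which makes 6 of the 9 members tested, where 40.3% of all 11053 genes were called (20.1% lower, 20.3% higher). Palbociclib lowered the same 5 members and raised none, against 37.1% of all genes (18.7% lower, 18.4% higher). In ZR-75-1, abemaciclib lowered E2F1, E2F2, E2F7, E2F8 and TFDP1 and raised E2F3, 6 of 10, against 36.2% of 11017 genes (18.3% lower, 17.9% higher). Palbociclib there lowered E2F2, E2F7, E2F8 and TFDP1 and raised E2F3 and TFDP2, also 6 of 10, against 27.9% (13.4% lower, 14.5% higher). The median log2 fold change of the members in CAMA-1 was -0.72 for abemaciclib and -0.61 for palbociclib, where that of all genes was 0.010 and 0.0011. In ZR-75-1 it was -0.68 for abemaciclib, also with E2F7 and E2F8 set at their bounds, and -0.14 for palbociclib, where that of all genes was -0.0037 and -0.0080. Both drugs of a line are read against the same 3 DMSO libraries.

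**Figure D1:**
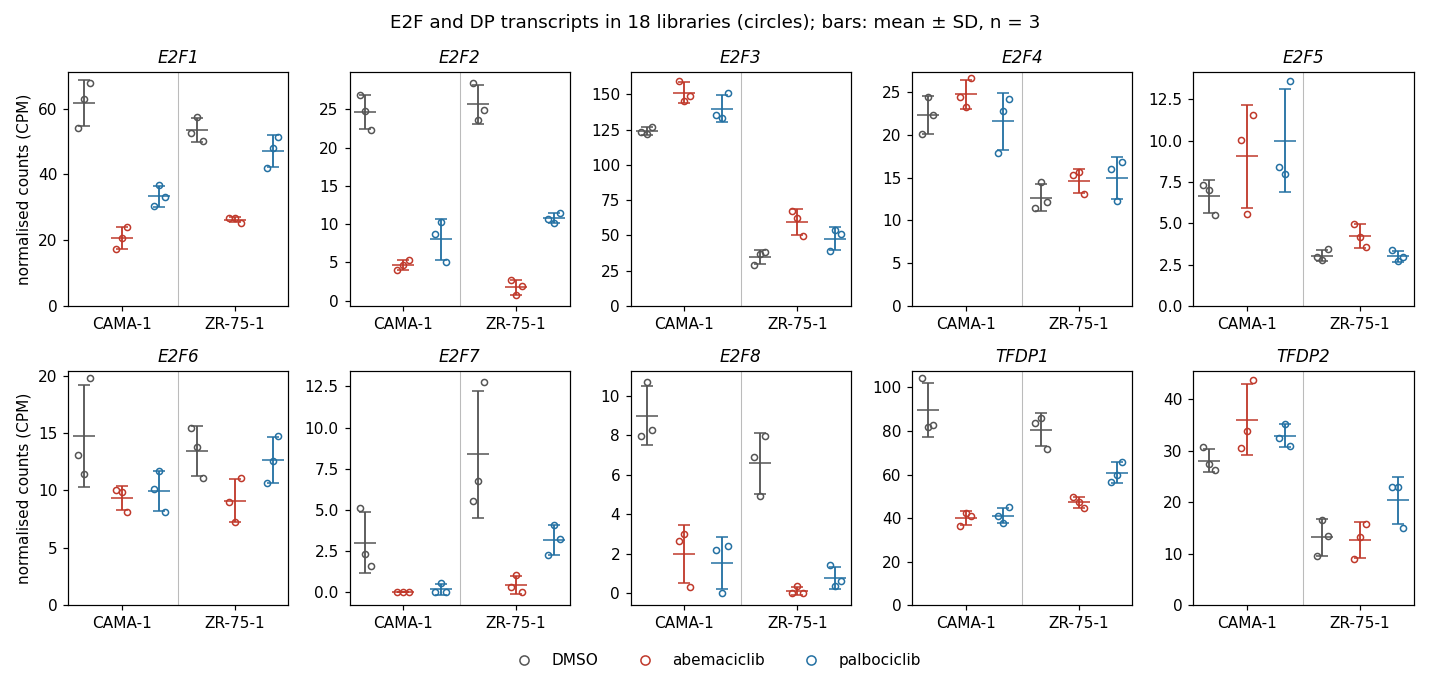
Normalised counts (CPM, vertical axes from 0 or just under it) of each E2F and DP gene in 18 libraries, by line and treatment. Circles are libraries and bars give the mean ± SD of 3. E2F1, E2F2, E2F8 and TFDP1 are below DMSO in every abemaciclib library of both lines, and E2F3 is above it.

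**Figure D2:**
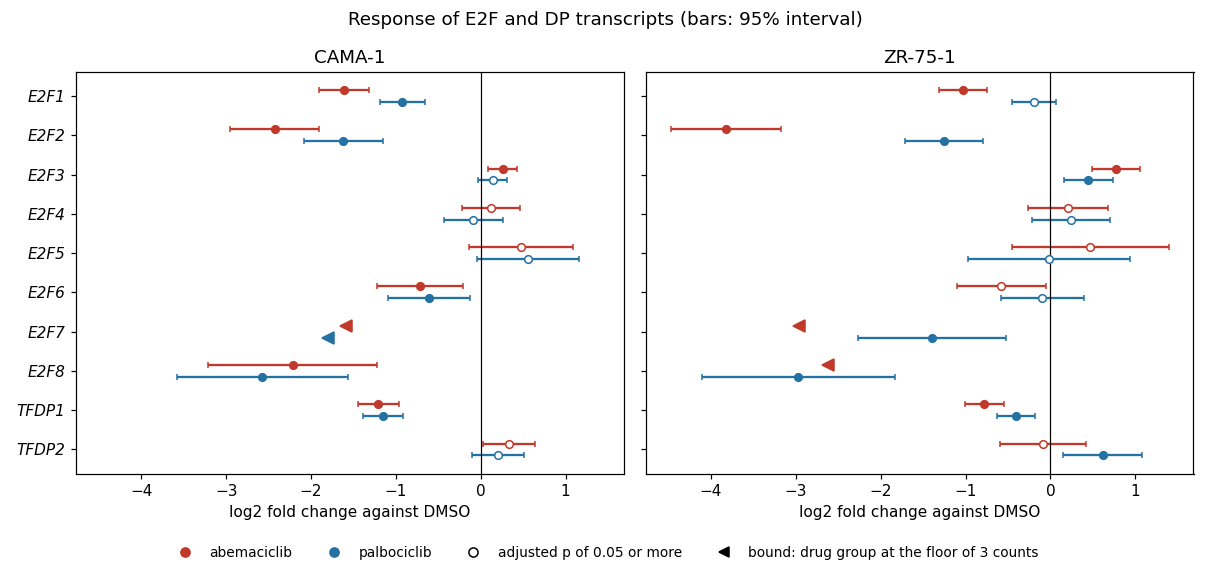
Log2 fold change against DMSO of each member, with 95% intervals as bars, for abemaciclib (red) and palbociclib (blue) in each line. Filled points were called, and triangles mark bounds where the drug group lay at or under 3 counts, so that the fall was at least that large.

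E2F1 and E2F2 are activators whose own genes are transcribed at the passage from G1 to S phase. Both fell with each drug in each line, except E2F1 with palbociclib in ZR-75-1. E2F1 was at 54.0, 63.0 and 67.8 CPM in the DMSO libraries of CAMA-1, at 17.5, 20.6 and 24.1 CPM with abemaciclib and at 30.3, 36.7 and 33.0 CPM with palbociclib. The 3 groups did not overlap, with palbociclib in the middle. The log2 fold change was -1.62 ± 0.15 for abemaciclib (adjusted p = 4.97e-12), a 3.07-fold fall, while palbociclib gave -0.92 ± 0.14 (adjusted p = 4.63e-07). In ZR-75-1, E2F1 was at 52.7, 57.4 and 50.1 CPM in DMSO, 26.9, 26.7 and 25.3 CPM with abemaciclib, and 41.8, 48.1 and 51.2 CPM with palbociclib. Here abemaciclib stood apart from both other groups, while the palbociclib and DMSO libraries overlapped. The abemaciclib change was -1.03 ± 0.15 (adjusted p = 4.80e-08), whereas the palbociclib change of -0.19 was not called (interval -0.45 to 0.068, adjusted p = 0.304).

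E2F2 had a more negative log2 value than E2F1 in all 4 comparisons, although the difference between these genes was not tested. In CAMA-1 it was at 26.8, 24.8 and 22.3 CPM in DMSO, 3.97, 4.72 and 5.31 CPM with abemaciclib, and 8.66, 10.2 and 5.10 CPM with palbociclib. Every drug-treated library was below every DMSO library, and the ranges of the drugs overlapped. Abemaciclib changed it by -2.43 ± 0.27 (adjusted p = 4.87e-10), palbociclib by -1.62 ± 0.24 (adjusted p = 3.57e-07). In ZR-75-1, E2F2 was at 28.5, 23.6 and 24.9 CPM in DMSO, 2.65, 0.695 and 1.97 CPM with abemaciclib, which are 8, 2 and 5 counts, and 10.7, 10.2 and 11.5 CPM with palbociclib. No group overlapped another. The fall with abemaciclib was 14.2-fold (log2 -3.83 ± 0.33, adjusted p = 1.62e-14) and that with palbociclib 2.38-fold (log2 -1.25 ± 0.23, adjusted p = 2.75e-05). The counts behind the abemaciclib level are few, so its size is less precise than that of E2F1.

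E2F3, the third activator, was higher with abemaciclib in both lines and with palbociclib in ZR-75-1. In CAMA-1 it was at 123, 122 and 127 CPM in DMSO, 159, 145 and 149 CPM with abemaciclib, and 135, 133 and 151 CPM with palbociclib. Both drug groups lay above the DMSO group. The rise with abemaciclib was small (log2 0.26 ± 0.085, 1.19-fold, adjusted p = 0.0142) and was not called without abemaciclib replicate 1 (0.22, adjusted p = 0.0727), and the palbociclib value of 0.14 was not called (interval -0.027 to 0.30, adjusted p = 0.208). In ZR-75-1, E2F3 was at 29.1, 37.1 and 38.0 CPM in DMSO, 67.0, 62.2 and 49.3 CPM with abemaciclib, and 38.7, 53.6 and 51.0 CPM with palbociclib. Each drug group lay above DMSO. Abemaciclib raised it 1.71-fold (log2 0.77 ± 0.14, adjusted p = 1.74e-05). The palbociclib rise of 0.45 ± 0.15 (adjusted p = 0.0163) was lost in DESeq2 (adjusted p = 0.0762) and without DMSO replicate 1 (0.33, adjusted p = 0.140), palbociclib replicate 2 (0.36, adjusted p = 0.113) or palbociclib replicate 3 (0.39, adjusted p = 0.0750).

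The make-up of the activator class is given by its sum and by the share of each gene, as a description with no test. The summed activator level was 210 ± 6.57 CPM (SD, n = 3 in each group) in DMSO, 177 ± 5.16 CPM with abemaciclib and 181 ± 7.38 CPM with palbociclib in CAMA-1, and 114 ± 3.95, 87.6 ± 10.1 and 106 ± 12.5 CPM in ZR-75-1. These sums and shares are of 3′ counts, which scale little with gene length, and were not divided by it. E2F3 made up 59.0 ± 1.24% of activator counts in CAMA-1 DMSO, 85.6 ± 2.35% with abemaciclib and 77.1 ± 2.99% with palbociclib. In ZR-75-1 its share was 30.5 ± 3.70% in DMSO, where E2F1 held the most with 46.9 ± 2.25%, and rose to 67.7 ± 2.87% with abemaciclib and 45.1 ± 2.72% with palbociclib. In both lines the 3 groups did not overlap in this share. The E2F2 share fell from 11.8 ± 1.44% to 2.65 ± 0.41% with abemaciclib in CAMA-1 and from 22.6 ± 2.95% to 2.03 ± 1.09% in ZR-75-1.

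**Figure D3:**
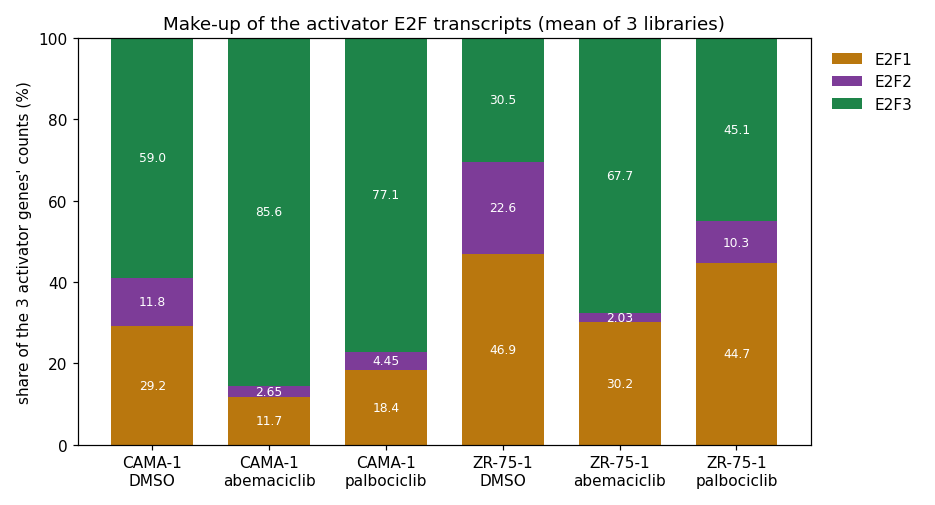
Share (%) of E2F1, E2F2 and E2F3 in the summed counts of these 3 genes, as the mean of 3 libraries for each line and treatment. E2F3 takes 59.0% in CAMA-1 DMSO and 85.6% with abemaciclib, and 30.5% and 67.7% in ZR-75-1.

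The classical repressors were summed in the same way. Their level in CAMA-1 was 43.7 ± 3.57 CPM in DMSO, 43.1 ± 3.98 CPM with abemaciclib and 41.6 ± 4.84 CPM with palbociclib, and in ZR-75-1 it was 29.1 ± 2.27, 28.0 ± 1.09 and 30.6 ± 3.54 CPM, with overlap between the groups of each line. E2F4, which holds p130 and p107 at promoters in resting cells, was at 20.1 to 24.4 CPM in CAMA-1 DMSO, 23.2 to 26.6 CPM with abemaciclib and 17.8 to 24.1 CPM with palbociclib. In ZR-75-1 it was at 11.5 to 14.4, 13.0 to 15.6 and 12.2 to 16.8 CPM. Its 4 drug responses lay between -0.089 and 0.24 on the log2 scale and none was called, with intervals that reached from -0.44 to 0.70. E2F5 was at 5.52 to 7.35 CPM in CAMA-1 DMSO and 5.58 to 11.6 and 7.97 to 13.6 CPM with abemaciclib and palbociclib, and at 2.71 to 4.98 CPM over all of ZR-75-1. No response of E2F5 was called: in CAMA-1 the values were 0.47 (interval -0.14 to 1.08) and 0.55 (-0.047 to 1.15), and in ZR-75-1 they were 0.47 (-0.45 to 1.39) and -0.016 (-0.97 to 0.93). Counts of 8 to 40 per library leave wide intervals for this gene.

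E2F6, the repressor that works with Polycomb proteins, was the one member of its class with a called change, in CAMA-1. It was at 13.1, 11.4 and 19.8 CPM in DMSO, 10.1, 9.87 and 8.12 CPM with abemaciclib, and 10.1, 11.7 and 8.16 CPM with palbociclib. DMSO replicate 3 was the highest library by far, the abemaciclib group lay below DMSO, and the palbociclib group overlapped it. Abemaciclib changed it by -0.72 ± 0.26 (adjusted p = 0.0229), palbociclib by -0.61 ± 0.25 (adjusted p = 0.0488). Both calls rested on that DMSO library: once it was left out, abemaciclib gave -0.43 (adjusted p = 0.273) and palbociclib -0.32 (adjusted p = 0.423). The abemaciclib call also failed in DESeq2 (adjusted p = 0.0924), as it did when abemaciclib replicate 3 was left out (-0.62, adjusted p = 0.0928). The palbociclib call was also lost in DESeq2 (0.166), without the filter on low counts (0.0832), in 1 fit over all 18 libraries (0.0638), without palbociclib replicate 1 (0.104) and without palbociclib replicate 3 (0.159), all given as adjusted p. In ZR-75-1, E2F6 was at 15.4, 13.8 and 11.1 CPM in DMSO, 8.96, 7.29 and 11.1 CPM with abemaciclib, and 10.7, 12.5 and 14.7 CPM with palbociclib, and neither value passed the test, that of abemaciclib being -0.58 (adjusted p = 0.0905) and that of palbociclib -0.094 (adjusted p = 0.828).

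The atypical repressors, whose genes are themselves transcribed in S phase, were low in every group, at no more than 12.8 CPM in any library, and E2F8 fell in all 4 comparisons. E2F8 held 25, 32 and 36 counts in CAMA-1 DMSO, 10, 7 and 1 with abemaciclib and 9, 0 and 7 with palbociclib. These were 7.99, 10.7 and 8.27 CPM in DMSO, 2.65, 3.00 and 0.312 CPM with abemaciclib and 2.17, 0 and 2.38 CPM with palbociclib, with no overlap with DMSO. Abemaciclib changed it by -2.22 ± 0.51 (adjusted p = 0.000430), palbociclib by -2.57 ± 0.51 (adjusted p = 8.06e-05). In ZR-75-1, E2F8 held 21, 16 and 23 counts in DMSO, 0, 1 and 0 with abemaciclib and 5, 1 and 2 with palbociclib. As all abemaciclib libraries were at or under the floor of 3 counts, the level there was at least 6.13-fold lower than in DMSO (adjusted p = 4.45e-07), and with palbociclib the change was -2.97 ± 0.58 (adjusted p = 5.70e-05).

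E2F7 held 16, 7 and 7 counts in CAMA-1 DMSO, 0 in each abemaciclib library and 0, 2 and 0 with palbociclib. It was too scarce in that line to be tested, and against a floor of 3 counts per library it was at least 3.00-fold lower with abemaciclib and at least 3.49-fold lower with palbociclib. DMSO replicate 1 held most of these counts, and without it the bounds were 1.96-fold and 2.28-fold. In ZR-75-1 it held 17, 22 and 37 counts in DMSO, 1, 3 and 0 with abemaciclib and 8, 12 and 11 with palbociclib. All drug-treated libraries were below all DMSO libraries. E2F7 was at least 7.79-fold lower with abemaciclib (adjusted p = 6.58e-07). With palbociclib the change was -1.39 ± 0.44 (adjusted p = 0.0135), and it fell short of the threshold in DESeq2 (adjusted p = 0.0684), without DMSO replicate 3 (-0.97, adjusted p = 0.199) and without palbociclib replicate 1 (-1.19, adjusted p = 0.0712).

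Of the DP partners, TFDP1 fell in all 4 comparisons, whereas TFDP2 was called in 1 of them. TFDP1 encodes DP1, the commoner partner of the E2Fs. In CAMA-1 it was at 104, 82.1 and 82.7 CPM in DMSO, 36.3, 42.5 and 40.9 CPM with abemaciclib, and 40.9, 37.8 and 44.9 CPM with palbociclib. Both drug groups lay far below DMSO and overlapped each other. Abemaciclib changed it by -1.21 ± 0.12 (adjusted p = 7.97e-11), palbociclib by -1.15 ± 0.12 (adjusted p = 1.65e-10). In ZR-75-1, TFDP1 was at 83.8, 85.9 and 71.9 CPM in DMSO, 49.8, 47.2 and 44.6 CPM with abemaciclib, and 56.7, 60.0 and 66.0 CPM with palbociclib. No group overlapped another, with abemaciclib lowest. Abemaciclib changed it by -0.78 ± 0.12 (adjusted p = 3.69e-07), palbociclib by -0.41 ± 0.11 (adjusted p = 0.00425).

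TFDP2, which encodes DP2, was at 30.7, 27.5 and 26.2 CPM in CAMA-1 DMSO, 30.4, 33.9 and 43.7 CPM with abemaciclib, and 32.5, 35.3 and 31.0 CPM with palbociclib. The palbociclib libraries lay just above those in DMSO, and the abemaciclib libraries overlapped them. Neither value passed the test (0.33, adjusted p = 0.0882, and 0.20, adjusted p = 0.322), although the first did without abemaciclib replicate 1 (0.46, adjusted p = 0.0294). In ZR-75-1 it was at 9.50, 16.6 and 13.5 CPM in DMSO, 8.96, 13.2 and 15.8 CPM with abemaciclib, and 23.0, 23.1 and 15.0 CPM with palbociclib. The groups overlapped. The palbociclib change of 0.61 ± 0.24 was called at an adjusted p of 0.0447 and lost in DESeq2 (0.166) and without DMSO replicate 1 (0.42, adjusted p = 0.256), DMSO replicate 3 (0.62, adjusted p = 0.0765), palbociclib replicate 1 (0.51, adjusted p = 0.162) or palbociclib replicate 2 (0.52, adjusted p = 0.166). The abemaciclib value was -0.084 (interval -0.59 to 0.42). Within a library, the log2 ratio of TFDP1 to TFDP2 counts fell from 1.67 ± 0.093 (SD, n = 3) in CAMA-1 DMSO to 0.16 ± 0.23 with abemaciclib and 0.32 ± 0.22 with palbociclib, and in ZR-75-1 it was 2.64 ± 0.43, 1.94 ± 0.50 and 1.61 ± 0.46.

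The drugs were then set against each other at the same dose and time. In CAMA-1, 1 member of the 9 tested was called, E2F1, lower with abemaciclib by 0.69 ± 0.16 on the log2 scale (log2 fold change -0.69, adjusted p = 0.00810), where 2.33% of genes were called (1.53% lower). The call was lost without abemaciclib replicate 1 (-0.56, adjusted p = 0.119) and without palbociclib replicate 2 (-0.61, adjusted p = 0.0691). E2F2 had a value of -0.81 (interval -1.41 to -0.21) that was not called (adjusted p = 0.199), and for TFDP1 the interval of the difference was -0.32 to 0.21. The other tested members had values from -0.11 (E2F6) to 0.36 (E2F8), none of them called. E2F7 was at or under 3 counts in both groups. In ZR-75-1, 5 of 10 members were called, all lower with abemaciclib, against 13.2% of genes (7.94% lower). E2F2 differed most among those with counts above the floor, by -2.58 ± 0.37 (5.96-fold, adjusted p = 3.49e-07), E2F1 by -0.84 ± 0.15 (adjusted p = 1.94e-05), and E2F7 was at least 2.97-fold lower (adjusted p = 0.00904). Without abemaciclib replicate 1 only 2 members were called, E2F1 and E2F2, so the call of E2F7 was lost there.

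The differences of both DP genes between the drugs in ZR-75-1 were less stable. TFDP1 differed by -0.37 ± 0.12 (adjusted p = 0.0351) and was not called in DESeq2 (0.141), without the filter on low counts (0.0679), or without any of abemaciclib replicates 1, 2 and 3 (-0.41, -0.36 and -0.32) or palbociclib replicates 2 and 3 (-0.37 and -0.30), with adjusted p from 0.0566 to 0.176. TFDP2 differed by -0.70 ± 0.24 (adjusted p = 0.0445) and was not called in DESeq2 (0.192) or without abemaciclib replicates 1 or 2 (-0.50 and -0.73) or palbociclib replicates 1 or 2 (-0.59 and -0.60), with adjusted p from 0.0899 to 0.266. E2F4 (-0.041), E2F5 (0.49) and E2F6 (-0.48) were not called, and E2F8 was too scarce for its difference to be sized. E2F3 had a value of 0.33 (interval 0.055 to 0.60, adjusted p = 0.119) that was called only without abemaciclib replicate 3 (0.45, adjusted p = 0.0474). The difference in E2F2 between the drugs was itself larger in ZR-75-1 than in CAMA-1 (interaction -1.77 ± 0.51, adjusted p = 0.0385), the 1 member called among 10 where 2.80% of 11987 genes were called. It was not called without the filter on low counts (-1.76, adjusted p = 0.0655) or without CAMA-1 abemaciclib replicate 2 (-1.73) or 3 (-1.63), CAMA-1 palbociclib replicate 1 (-1.80) or 3 (-1.54), ZR-75-1 abemaciclib replicate 2 (-1.38) or 3 (-1.84) or ZR-75-1 palbociclib replicate 3 (-1.70), with adjusted p from 0.0574 to 0.194.

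How far the lines differed in response was tested as an interaction over all 18 libraries, in ZR-75-1 relative to CAMA-1. With palbociclib, 2 of 10 members were called, where 20.3% of genes were. E2F1 fell less in ZR-75-1, by 0.71 ± 0.19 (adjusted p = 0.00394), and TFDP1 fell less by 0.72 ± 0.17 (adjusted p = 0.000802), and both calls held in all 17 alternatives run. With abemaciclib, E2F2 and E2F3 were called, also 2 of 10, against 18.2% of genes. E2F2 fell further in ZR-75-1 (-1.42 ± 0.48, adjusted p = 0.0301), and E2F3 rose further (0.49 ± 0.16, adjusted p = 0.0259). The E2F2 call was lost without the filter on low counts (-1.43, adjusted p = 0.0589) and without CAMA-1 DMSO replicate 3 (-1.30), CAMA-1 abemaciclib replicate 2 (-1.35) or 3 (-1.26), ZR-75-1 DMSO replicate 1 (-1.34) or ZR-75-1 abemaciclib replicate 2 (-1.04). The E2F3 call was lost without ZR-75-1 DMSO replicate 1 (0.38), ZR-75-1 abemaciclib replicate 1 (0.46) or 2 (0.47). E2F1 was close to the threshold with abemaciclib (0.56 ± 0.21, adjusted p = 0.0521) and was called in DESeq2 (0.0476), with RLE scaling (0.0429), without mitochondrial genes (0.0346) and without CAMA-1 DMSO replicate 1 (0.70), CAMA-1 abemaciclib replicate 2 (0.62) or 3 (0.75) or ZR-75-1 DMSO replicate 2 (0.68). TFDP1 had 0.40 (adjusted p = 0.0962) and was called without CAMA-1 DMSO replicate 2 (0.51) or 3 (0.51), CAMA-1 abemaciclib replicate 2 (0.51) or ZR-75-1 DMSO replicate 2 (0.51).

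**Figure D4:**
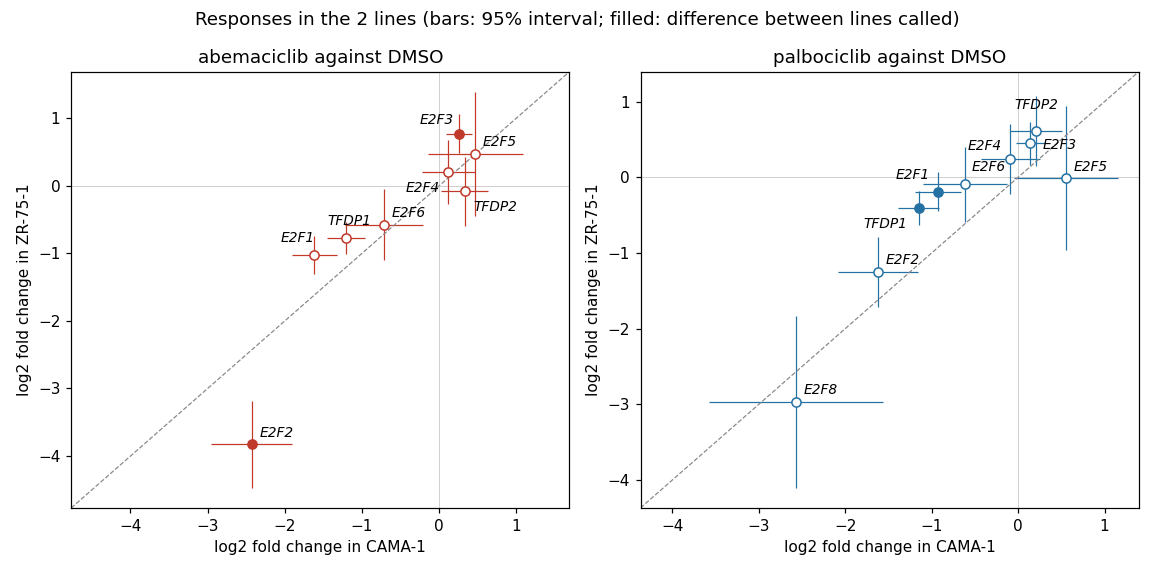
Log2 fold change of each member against DMSO in ZR-75-1 (vertical) against CAMA-1 (horizontal), for abemaciclib and palbociclib, with 95% intervals as bars and a dashed line of equal response. Filled points (E2F2 and E2F3, then E2F1 and TFDP1) had a called interaction; genes with a group at or under 3 counts are left out.

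In DMSO the lines differed in 5 of 10 members, where 61.3% of all genes were called, a share above that of the members. E2F3 was 3.57-fold lower in ZR-75-1 than in CAMA-1 (log2 -1.84 ± 0.12, adjusted p = 2.32e-21), E2F4 was lower by 0.81 on the log2 scale (-0.81 ± 0.20, adjusted p = 0.000515), and TFDP2 was 2.11-fold lower (-1.08 ± 0.21, adjusted p = 6.82e-06). E2F5 was lower too (-1.10 ± 0.39, adjusted p = 0.0128). E2F7 was the member that was higher in ZR-75-1 (1.49 ± 0.49, adjusted p = 0.00653), though it fell short of the threshold without CAMA-1 DMSO replicate 3 (1.11, adjusted p = 0.0762) or ZR-75-1 DMSO replicate 3 (1.06, adjusted p = 0.104). E2F1 was not called (-0.21, interval -0.46 to 0.042), and passed only without CAMA-1 DMSO replicate 1 (-0.35, adjusted p = 0.0311). Over the 6 groups, E2F1 ran from CAMA-1 DMSO at 61.6 ± 7.01 CPM, through ZR-75-1 DMSO, ZR-75-1 palbociclib, CAMA-1 palbociclib and ZR-75-1 abemaciclib, down to CAMA-1 abemaciclib at 20.7 ± 3.29 CPM (SD, n = 3), and only the first 3 of these overlapped with their neighbours. E2F3 kept the 3 groups of CAMA-1 above the 3 of ZR-75-1 throughout.

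The genes around the E2Fs were counted from lists, again over all genes tested. All 26 classical E2F targets were called lower with each drug in CAMA-1 (median log2 fold change -2.14 with abemaciclib and -1.44 with palbociclib), and in ZR-75-1 25 of 26 were lower with abemaciclib (median -1.63) and 14 with palbociclib (median -0.47). None was called higher. Against palbociclib, abemaciclib had 11 of the 26 lower in CAMA-1 and 22 lower in ZR-75-1, beside 1.53% and 7.94% of all genes. RRM2, a subunit of ribonucleotide reductase, went from 181 ± 7.43 CPM in CAMA-1 DMSO to 9.84 ± 0.41 CPM with abemaciclib and 30.3 ± 3.67 CPM with palbociclib (SD, n = 3), and from 81.6 ± 5.45 to 1.21 ± 0.48 and 41.7 ± 7.92 CPM in ZR-75-1. CCNA2, cyclin A2, changed on the log2 scale by -4.20 (CAMA-1) and -4.64 (ZR-75-1) with abemaciclib, beside -2.84 (CAMA-1) and -1.495 (ZR-75-1) with palbociclib.

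Of the pocket proteins, the MuvB core and its partners, 9 of 10 were tested. With abemaciclib 6 were lower and 1 higher in CAMA-1 (median -0.70) and 4 lower in ZR-75-1 (median -0.24). With palbociclib the counts were 6 lower and 1 higher (median -0.71), and 2 lower (median -0.26). Among all genes, 20.1% were lower and 20.3% higher with abemaciclib in CAMA-1, and 18.3% lower in ZR-75-1. Palbociclib had 18.7% lower and 18.4% higher in CAMA-1, and 13.4% lower in ZR-75-1. FOXM1, a transcription factor of mitotic genes, changed by -2.64 (CAMA-1) and -2.37 (ZR-75-1) with abemaciclib, and by -2.35 and -0.75 with palbociclib. MYBL2, which binds MuvB in S phase, changed by -2.02 and -1.77 with abemaciclib, and by -1.62 and -0.36 with palbociclib, in the same order of lines. The pocket proteins themselves are named after their values were seen, since they hold the E2Fs. RB1 (Rb) had -0.032 (abemaciclib) and -0.079 (palbociclib) in CAMA-1, neither of them called. In ZR-75-1 it was lower with abemaciclib (-0.71, adjusted p = 0.000115) and not called with palbociclib (-0.26, adjusted p = 0.162). RBL1 (p107), itself an E2F target, was lower with abemaciclib in both lines (-1.94, then -1.58) and with palbociclib only in CAMA-1 (-1.39; in ZR-75-1 -0.69, adjusted p = 0.0534), and RBL2 (p130) was higher with both drugs in CAMA-1 (0.58 and 0.39) and was not called in ZR-75-1 (0.30, adjusted p = 0.270, with abemaciclib, and -0.12, adjusted p = 0.738, with palbociclib).

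Of the 14 kinases, cyclins and inhibitors upstream of Rb, 12 were tested in each line. With abemaciclib 8 were lower and 3 higher in CAMA-1 (median -0.58) and 7 lower and 1 higher in ZR-75-1 (median -0.95), and with palbociclib 8 lower and 3 higher (median -0.53) and 6 lower and 1 higher (median -0.78). These counts and medians pool kinases and cyclins with their inhibitors. CCND1 (cyclin D1) and the inhibitors CDKN1A and CDKN2B are named after their values were seen. CCND1 was higher with abemaciclib (1.30 in CAMA-1, 0.93 in ZR-75-1) and palbociclib (1.31, 0.82). CDKN1A was higher in CAMA-1 (1.99 with abemaciclib, 1.64 with palbociclib) and lower in ZR-75-1 (-2.48, -1.04). CDKN2B was higher with both drugs in CAMA-1 and was not tested in ZR-75-1. CDKN2C, the CDK4/6 inhibitor p18, changed by -3.85 (CAMA-1) and -3.02 (ZR-75-1) with abemaciclib, and by -2.38 and -1.57 with palbociclib. CCNE2, cyclin E2, was at 23.2 ± 2.05 CPM in CAMA-1 DMSO, 3.61 ± 0.61 CPM with abemaciclib and 9.33 ± 2.87 CPM with palbociclib. In ZR-75-1 it was at 14.9 ± 3.01, 0.46 ± 0.50 and 5.33 ± 1.17 CPM, with all abemaciclib libraries at or under 3 counts. Of the 11 genes of the E2F6 complex, 4 were lower with each drug in CAMA-1, where 20.1% and 18.7% of all genes were lower with abemaciclib and palbociclib. In ZR-75-1 10 were tested, of which 3 were lower with abemaciclib and 0 with palbociclib, against 18.3% and 13.4% of all genes, and none was called higher in either line. Its medians were -0.19 and -0.13 in CAMA-1 for abemaciclib and palbociclib, then -0.12 and -0.088 in ZR-75-1. RING1, 1 of the ubiquitin ligases on this list, changed with abemaciclib by -0.51 (CAMA-1) and -0.47 (ZR-75-1), and with palbociclib by -0.43 (CAMA-1). MAX, the partner of MYC and of other factors, changed by -0.41 (abemaciclib) and -0.30 (palbociclib) in CAMA-1, and EHMT2, a histone methyltransferase, by -0.50 with abemaciclib in ZR-75-1.

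Last, each member was set beside the genes whose levels varied most like it over the 18 libraries, after the mean of each line was taken out. The correlations describe these libraries, which share their treatments, and carry no test. E2F1 was closest to DTL, HELLS and MCM10 (Pearson r 0.98, 0.98 and 0.97), of which DTL and MCM10 act in DNA replication and its control. E2F2 was closest to CDKN3, TPX2 and TOP2A (0.98, 0.98 and 0.97), of which TPX2 acts at the mitotic spindle and TOP2A untangles chromosomes, and TFDP1 to NUF2, SRSF2 and NCAPG2 (0.97, 0.96 and 0.96). E2F3 was closest to HSPA1A, GNPTG and ACAD8 (0.92, 0.90 and 0.90), and HSPA1A has a near-identical copy, HSPA1B, with which it can share reads. The likeness was lower for E2F4 (SDHAF2, 0.78), E2F5 (COPB1, 0.82), E2F6 (PGK1, 0.87) and TFDP2 (MSRB1, 0.82). Among the members, E2F1, E2F2 and TFDP1 varied together (r 0.83 to 0.88), E2F3 ran against E2F2 (r -0.83) and against E2F1 (r -0.62), and TFDP2 was not close to any of them, with E2F4 the highest at r 0.16.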

How the data were processed

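RNA was measured by 3′-end sequencing (Lexogen QuantSeq) in 18 libraries, 3 per group. The authors deposited raw read counts per gene, made by trimming with BBDuk, alignment with STAR 2.7.5b to hg38 and counting with featureCounts 2.0.1 on GENCODE 35. Sources differ on which strand version of the kit was used, and molecular identifiers are not given in the sources used here.

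Groups come from the sample labels, and columns were matched to samples by title. Each line was fitted over its 9 libraries in edgeR 4.0.16 (R 4.3.3): filterByExpr on the groups, TMM scaling, quasi-likelihood F tests and Benjamini-Hochberg adjustment over all genes tested. Interactions and the DMSO comparison came from 1 fit over 18 libraries (11987 genes), and log2 values of the fits differ slightly. The biological coefficient of variation was 8.12% in CAMA-1 and 8.30% in ZR-75-1. The test was checked on simulated counts, with changes only in genes at a mean of at least 10 counts and the same spread for every gene. That check does not cover genes with few counts. Where all libraries of a group held at most 3 counts, a fold is a bound against that floor. It sets the mean level of the other group over the floor and leaves out the error of that mean. The intervals come from the fitted spread between libraries and cover no other source of error.

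The naming rule covered all 10 members. Of each pathway list, the 2 called genes with the largest abemaciclib change in a line are named, and of each member the 3 most similar genes, or the first of them, both at a mean of at least 10 counts, which left out E2F7 and E2F8. Members and lists were chosen with earlier results of these data known. Alternatives were DESeq2 1.42.0, RLE scaling, no filter, no mitochondrial genes, a replicate block, 1 joint fit and leaving out each library.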

Additional observations from a re-analysis of the deposited data

Results flagged for a closer look

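In 5 cases the response of a member differed between the lines by a test of the difference itself, as ZR-75-1 relative to CAMA-1 on the log2 scale (edgeR, adjusted over 11987 genes). With abemaciclib these were E2F2 (-1.42 ± 0.48 SE, adjusted p = 0.0301) and E2F3 (0.49 ± 0.16, adjusted p = 0.0259). With palbociclib they were E2F1 (0.71 ± 0.19, adjusted p = 0.00394) and TFDP1 (0.72 ± 0.17, adjusted p = 0.000802). The difference between abemaciclib and palbociclib differed between the lines for E2F2 (-1.77 ± 0.51, adjusted p = 0.0385). The palbociclib calls held in all 17 alternatives, while the 3 others were lost in several of theirs. The 2 of 10 members called for each drug are close to the 18.2% (abemaciclib) and 20.3% (palbociclib) of all genes called, and for the difference between the drugs 2.80% of all genes were called. Groups of 3 libraries were not searched for single deviating libraries.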

How the results depend on the processing

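Of 39 called values of members, 3 had a group at or under 3 counts, and their refitted values are not given. Among the other 36, 22 kept their call and direction in each alternative run. Of the bounds given, those of E2F7 in CAMA-1 moved by over 1.5 times, without DMSO replicate 1. In DESeq2 3 members were called with palbociclib in ZR-75-1 (6 by edgeR) and 3 of 5 between the drugs in ZR-75-1, where it called 902 genes in place of 1451. Without the filter on low counts 1 member in place of 2 differed between lines with abemaciclib, and 0 in place of 1 (E2F2, adjusted p = 0.0655) in the difference between the drugs. Leaving out 1 library each gave 151 to 197 genes between the drugs in CAMA-1 (257 with all, 151 without palbociclib replicate 1 and 154 without abemaciclib replicate 3). Members called then ranged from 0 to 1 between the drugs in CAMA-1, 2 to 4 in ZR-75-1, 0 to 1 for the difference of these, and 0 to 4 for the abemaciclib difference between lines. Values near 0 that were never called changed sign when 1 library was left out: E2F4 with palbociclib in CAMA-1 (-0.17 to 0.045), E2F5 (-0.11 to 0.071) and E2F6 (-0.23 to 0.018) with palbociclib in ZR-75-1, and TFDP2 with abemaciclib in ZR-75-1 (-0.27 to 0.12). The causes were not tested. Same-numbered libraries did not deviate together (r -0.056 to 0.025 in 18 pairs), so the numbers name libraries only. With a replicate block, 3 in place of 5 members were called between the lines in DMSO (E2F5 -0.997, adjusted p = 0.0960, and E2F7 0.37, adjusted p = 0.733, were lost). That block took replicate 1 of each line as its reference. These values therefore compare the lines at the level fitted for replicate 1 and not at their means. E2F5 lost its call in that alternative only. Within CAMA-1, E2F6 lost its palbociclib call with the block (adjusted p = 0.0707). At these depths members with few counts, E2F5, E2F7 and E2F8, have wide errors, and a fall below 3 counts could not be sized.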
